A study of Mus musculus with 4 samples.

Results

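This report follows 10 genes of the p53 pathway, namely Trp53 with 5 of its neighbours on mouse chromosome 11 (Wrap53, Atp1b2, Fxr2, Kdm6b and Mpdu1), the INK4/ARF genes Cdkn2a and Cdkn2b, and the p53 inhibitors Mdm2 and Mdm4, among the 34866 genes of the deposited table. The genes were picked by name, with their levels in these libraries already known, because Trp53 was nearly absent from 1 of the tumors. Differences between the tumors are therefore given as values, with no test. The study sorted lymphoma cells from the spleens of 2 sick mice, each carrying a human MYC gene under immunoglobulin λ light chain regulatory sequences (λ-MYC), a Cre recombinase knock-in allele and a Cre-dependent tdTomato reporter at Rosa26 (λ-MYC Tom+/ki). Tomato marks cells in which the Cre was active at any time in their past, so a Tom+ cell need not make Cre when it is sorted. From each mouse, B220+ IgM+ Tom- and B220+ IgM+ Tom+ cells gave 1 RNA-seq library each, so the Tom- and Tom+ groups hold 2 libraries each and all 4 share the transgene and both knock-in alleles. Each tumor is 1 mouse, and its 2 libraries are cell fractions of that mouse and not separate animals. Wild-type B cells were not analysed here, and the study gives a minimum age for its mice but not the age of each.

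The p53 protein, encoded by Trp53, is a transcription factor that halts division or kills cells under stress, and its loss is a common event in MYC-driven lymphoma. Mdm2 is a ubiquitin ligase that marks p53 for destruction and is itself switched on by p53, and Mdm4 is its relative that masks the activation domain of p53. The Cdkn2a gene makes 2 unrelated proteins from alternative first exons. ARF holds Mdm2 away from p53 when MYC or another oncogene is active, and p16INK4a blocks the cyclin D kinases Cdk4 and Cdk6. The ARF transcript is in turn repressed by p53.

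Trp53 (ENSMUSG00000059552) lies on the plus strand of chromosome 11 from 69580359 to 69591873 of GRCm38, and Wrap53 (69561758 to 69580255), which encodes a telomerase and Cajal body factor, runs the other way from a start only 103 bases away. The annotated gene bodies do not overlap. That Wrap53 start belongs to a transcript of 4 exons, and the Wrap53 transcript of 10 exons starts at 69579324, farther from Trp53. The stretch between the Trp53 start and the nearer Wrap53 start is shown, followed by the first 30 bases of Trp53 exon 1. It was chosen because both genes were at or near 0 in the same tumor. It is the plus strand of chr11:69580256-69580388 from RefSeq on GRCm38.p6, and capitals mark the E-box CACGTG, the sequence that MYC and MAX bind.
Trp53 start region: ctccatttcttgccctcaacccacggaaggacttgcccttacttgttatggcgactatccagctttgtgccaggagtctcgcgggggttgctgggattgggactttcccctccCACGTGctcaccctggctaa
The E-box begins at base 11 of the exon. On either strand, CACGTG is held by 7.15% of the 32851 RefSeq promoter windows, which run from 250 bases before to 50 bases after a start. Of the 10 genes, 8 matched at least 1 of these windows, 11 in all. Among these the E-box was in 2 only, that of Trp53 and that of the nearer Wrap53 start, which overlap and so share the sequence. A match is a stretch of letters, and binding was not measured.

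Cdkn2a (ENSMUSG00000044303, chromosome 4, 89274471 to 89294653, minus strand) has 2 annotated transcripts whose starts lie 12.5 kb apart. The 120 bases before each start are shown because the deposited value is per gene and not per transcript, so that ARF and p16INK4a could not be told apart. Both are read on the minus strand of GRCm38.p6, from chr4:89294654-89294773 for ARF and chr4:89282193-89282312 for INK4a. Capitals mark the GC box GGGCGG, which 35.7% of all windows hold on either strand. Those windows are longer than the 120 bases shown. The windows of both Cdkn2a starts hold a GC box, and that of INK4a lies outside the stretch shown.
Cdkn2a ARF start: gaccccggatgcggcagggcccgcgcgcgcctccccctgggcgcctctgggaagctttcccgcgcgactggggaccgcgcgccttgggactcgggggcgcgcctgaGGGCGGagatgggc
Cdkn2a INK4a start: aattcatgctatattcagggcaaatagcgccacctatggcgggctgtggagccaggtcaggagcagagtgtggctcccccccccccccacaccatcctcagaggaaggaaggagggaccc
The ARF stretch was 79.2% G or C with 17 CG pairs, and the INK4a stretch was 60.8% G or C with 2 CG pairs.

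Levels are in transcripts per 1000000 (TPM), which corrects for transcript length and can be compared between genes of a library. Read numbers are not known, so no counting error can be given, and what a listed 0 could hide is not known. Where a pair of values is given for a tumor, the Tom- library stands before the Tom+ library. Values after ± are SDs over the Tom- and Tom+ libraries of 1 mouse (n = 2). Calls of 2-fold between the tumors mean a difference of at least 1 between their means of log2(TPM + 1). For low genes this asks for more than 2-fold in TPM. In bulk RNA, fewer cells with a transcript and less of it per cell cannot be told apart. The 7 B cell markers, among them Cd79a, Cd22 and Pax5, were detected in every library and summed to 1956 to 2096 TPM in tumor #1 and 4229 to 5277 TPM in tumor #2, with 5 of the 7 at least 2-fold higher in tumor #2. The 6 T cell markers summed to 4.65 to 7.61 TPM in tumor #1 and 15.5 to 18.9 TPM in tumor #2, with Lck the highest in every library. Cd3d was at 0.329 and 0.0513 TPM (tumor #1) against 7.77 and 2.09 TPM (tumor #2), Cd3g reached 1.35 TPM in Tom+ cells of tumor #2, and Cd3e stayed at 0.0687 TPM or less. Of the 4 NK cell markers 3 were at 0 in every library, and their sum was 0.592 TPM or less. The 7 myeloid markers summed to 0.593 to 0.720 TPM in 3 libraries and to 8.77 TPM in Tom- cells of tumor #2, where S100a8 was at 3.003, S100a9 at 2.41, Itgam at 1.78 and Lyz2 at 1.41 TPM, and Cd14 was at 0 in all 4. The 4 erythroid markers summed to 16.1 to 18.8 TPM in tumor #1 and 0.185 to 0.871 TPM in tumor #2, with Hbb-bs at 18.8 and 16.1 TPM (tumor #1) against 0 and 0.699 TPM (tumor #2). The 4 markers of stroma and endothelium summed to 15.1 to 15.2 TPM in tumor #1 and 44.4 to 50.4 TPM in tumor #2, nearly all from Pecam1. The 5 plasma cell markers summed to 30.2 to 34.7 TPM in 3 libraries and to 260 TPM in Tom+ cells of tumor #2, where Jchain was at 209 TPM. The part of these shifts in the results was not tested.

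Trp53 was among the well expressed genes in tumor #1 and close to 0 in tumor #2. It was at 86.2 TPM in Tom- and 99.5 TPM in Tom+ cells of tumor #1, against 0.0870 TPM in Tom- and 0.145 TPM in Tom+ cells of tumor #2. Both libraries of tumor #1 were high (mean 92.9 ± 9.40 TPM) and both of tumor #2 low (0.116 ± 0.0410 TPM), with no overlap. The level in tumor #2 was 0.101% of that in tumor #1 in Tom- cells and 0.146% in Tom+ cells. Trp53 stood in tumor #1 above 90.2% of the 11339 genes tested, those that reached 1 TPM in 2 or more libraries, and in tumor #2 above 0.697% of them. It passed that limit through tumor #1 alone. On the log2(TPM + 1) scale the tumors differed by -6.39 (tumor #2 minus tumor #1, mean of the Tom- and Tom+ libraries). It was the 4th lowest of the 11339 differences, and the lowest of 11267 once immunoglobulin genes were left out.

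Wrap53 followed Trp53. It was at 6.42 TPM in Tom- and 6.43 TPM in Tom+ cells of tumor #1 and was listed at 0 in both libraries of tumor #2. Atp1b2, which encodes a subunit of the sodium pump and lies 7.9 kb beyond the other end of Trp53, was low throughout. Its level was 0.565 and 1.28 TPM (tumor #1) against 0.0305 and 0 TPM (tumor #2). The 2 tumors did not overlap in Atp1b2 either, but it reached 1 TPM in a single library and was not tested.

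The genes farther out on both sides were expressed in both tumors. Fxr2, an RNA-binding protein of the fragile X family that starts 41.1 kb beyond Trp53, was at 73.1 and 72.3 TPM (tumor #1) against 74.7 and 59.7 TPM (tumor #2). The range of tumor #2 took in both values of tumor #1. Mpdu1, which is needed for the use of dolichol-linked mannose in glycosylation, was at 21.5 and 24.6 TPM (tumor #1) against 21.4 and 33.3 TPM (tumor #2), again with overlap. Kdm6b, a histone H3K27 demethylase 166.7 kb from Trp53 on the Wrap53 side, was at 2.17 and 3.31 TPM (tumor #1) against 3.70 and 3.31 TPM (tumor #2). The libraries of its tumors did not overlap, but those of the Tom+ cells were almost equal. The differences between tumors were -0.12 for Fxr2, 0.21 for Mpdu1 and 0.29 for Kdm6b on the log2(TPM + 1) scale, beside a median of 0.20 over all genes tested. Quantile normalization gave -0.24, -0.021 and -0.17, so that Mpdu1 and Kdm6b changed sign with the scaling, and Fxr2 was 0.030 in the Tom- libraries alone.

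**Figure D1:**
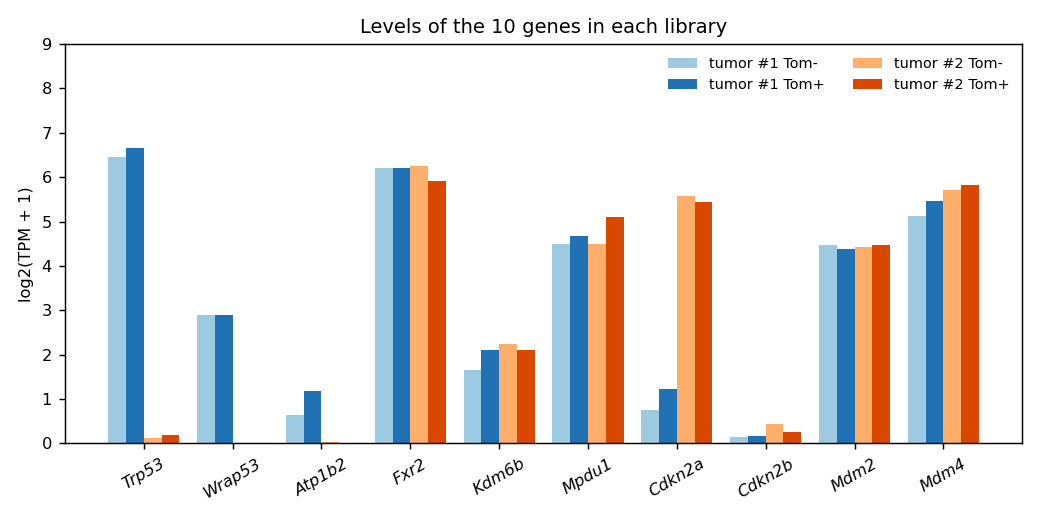
Level of each of the 10 genes, as log2(TPM + 1) on the vertical axis, with 1 bar per library (blue for tumor #1, orange for tumor #2, light for Tom- and dark for Tom+). Trp53, Wrap53 and Atp1b2 stand in tumor #1 and are at or near 0 in tumor #2, Cdkn2a is the reverse, and Fxr2, Kdm6b, Mpdu1, Mdm2 and Mdm4 are present in all 4 libraries.

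Between Kdm6b and Fxr2 lie 219.3 kb with 9 genes of the table. In tumor #1, 3 of them (Wrap53, Trp53 and Atp1b2) reached 1 TPM in at least 1 library, and in tumor #2 none of the 9 did. The other 6, Dnah2, Efnb3, Shbg, Sat2 and the pseudogenes Gm12308 and Gm12309, stayed below 1 TPM in all 4 libraries, with Efnb3 at 0.278 TPM or less and the rest listed at 0. With such levels in tumor #1, these 6 genes allow no comparison of the tumors. Over the 250 kb on either side of Trp53, 36 other genes are in the table and 16 of these passed the limit for testing. Of these 16, 3 were at least 2-fold lower in tumor #2 without overlap of the libraries (Wrap53, Chd3 and Naa38), and 4 were at least 2-fold higher (Zbtb4, Chrnb1, Fgf11 and Nlgn2), beside 5.1% lower and 16.2% higher among all 11339 genes. Chd3, a chromatin remodeler, was at 15.3 and 16.8 TPM (tumor #1) against 8.02 and 6.81 TPM (tumor #2), and Naa38, a subunit of an N-terminal acetyltransferase, was at 55.0 and 59.4 against 42.9 and 17.1 TPM. Both stayed well above 0, unlike Wrap53 and Trp53. Eif4a1, a translation initiation helicase 75.1 kb from Trp53, was at 1407 and 1384 TPM (tumor #1) against 1098 and 1245 TPM (tumor #2). Over chromosome 11 without Trp53, 29 of 904 tested genes were at least 2-fold lower in tumor #2 and 126 were higher, with a median difference of 0.16.

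**Figure D2:**
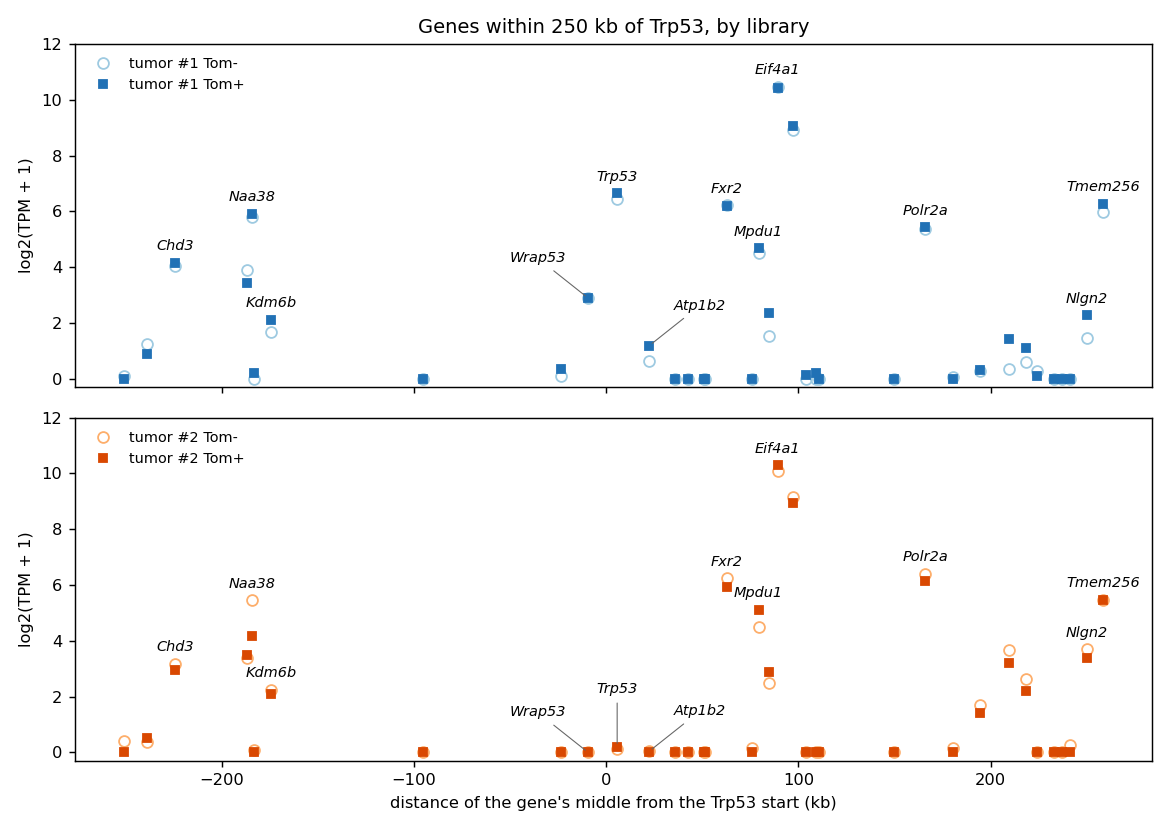
Level, as log2(TPM + 1), of each gene within 250 kb of Trp53 against the distance of the gene's middle from the Trp53 start in kb, with tumor #1 above, tumor #2 below, open circles for Tom- and filled squares for Tom+ libraries. Wrap53 and Trp53 stand above 0 in tumor #1 and sit at or near 0 in tumor #2, while Kdm6b on one side and Fxr2 on the other hold their level in both.

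Cdkn2a showed the opposite pattern to Trp53. It was at 0.682 TPM in Tom- and 1.35 TPM in Tom+ cells of tumor #1, against 47.0 TPM in Tom- and 42.2 TPM in Tom+ cells of tumor #2. Both libraries of tumor #2 were high (mean 44.6 ± 3.39 TPM against 1.02 ± 0.473 TPM), with no overlap, and the ratio of tumor #2 to tumor #1 was 68.9 in Tom- and 31.2 in Tom+ cells. The difference was 4.52 on the log2(TPM + 1) scale, the 48th highest of the 11339. The gene stood above 9.72% of the genes tested in tumor #1 and above 79.0% in tumor #2. Cdkn2b, which encodes the related inhibitor p15INK4b and lies next to Cdkn2a, did not share the high level. It was at 0.110 and 0.119 TPM (tumor #1) against 0.346 and 0.193 TPM (tumor #2), below the limit for testing in every library. Mtap, a methionine salvage enzyme and the only other gene within 250 kb of Cdkn2a that passed the limit, was at 30.9 and 33.6 TPM (tumor #1) against 24.0 and 28.5 TPM (tumor #2). Of Cdkn2a and Mtap, the tested genes of the locus, only Cdkn2a was at least 2-fold higher in tumor #2. By the ratio of mean TPM, Cdkn2b (2.36) was also more than 2-fold higher without overlap, at levels close to 0.

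Mdm2 (chromosome 10, 117688875 to 117710758) was at nearly the same level in all 4 libraries. It was at 21.1 and 19.7 TPM (tumor #1) against 20.6 and 21.1 TPM (tumor #2). The libraries of the 2 tumors overlapped. The difference between tumors was 0.032 on the log2(TPM + 1) scale, and it turned to -0.13 after trimmed-mean scaling and -0.21 after quantile normalization. Mdm4 (chromosome 1, 132959484 to 133030561) was at 34.0 and 43.4 TPM (tumor #1) against 51.0 and 56.0 TPM (tumor #2). Both libraries of tumor #2 were above both of tumor #1, with a difference of 0.47, below the 2-fold limit and positive under every scaling tried (0.30 to 0.54). By mean TPM the order in tumor #1 was Trp53, Fxr2, Mdm4, Mpdu1, Mdm2, Wrap53, Kdm6b, Cdkn2a, Atp1b2 and Cdkn2b. In tumor #2 it was Fxr2, Mdm4, Cdkn2a, Mpdu1, Mdm2, Kdm6b, Cdkn2b, Trp53, Atp1b2 and Wrap53. The libraries of neighbours in these orders did not overlap, except those of Cdkn2a and Atp1b2 in tumor #1 and of Atp1b2 and Wrap53, both listed at 0 in Tom+ cells, in tumor #2.

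Of the 10 genes, 8 passed the limit for testing (all but Atp1b2 and Cdkn2b). Among these 8, Trp53 and Wrap53 were at least 2-fold lower and Cdkn2a at least 2-fold higher in tumor #2 without overlap, 3 of 8, where 21.3% of all genes tested were that far apart in either direction. These 3 were chosen for their difference, so nothing is read from the count. The share of all genes in each direction depends on the scaling, since 578 were lower and 1835 higher with the values as deposited, 780 and 1517 after trimmed-mean scaling, and 1011 and 1116 after quantile normalization, and the median difference moved from 0.20 to 0.052 and -0.078. Trp53 and Wrap53 passed the limit for testing through tumor #1 alone, and Cdkn2a reached it in both libraries of tumor #2 and in 1 of tumor #1.

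**Figure D3:**
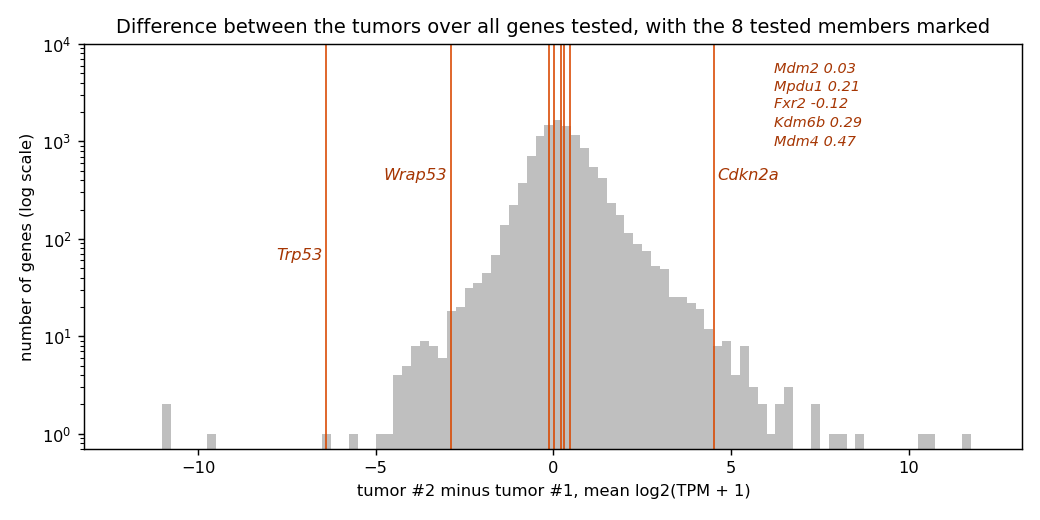
Histogram of the difference between the tumors (tumor #2 minus tumor #1, mean log2(TPM + 1)) over the 11339 genes tested, with the number of genes on a log axis and the 8 tested members as lines. Trp53 at -6.39 and Wrap53 at -2.89 lie in the lower tail, Cdkn2a at 4.52 in the upper tail, and the other 5 between -0.12 and 0.47.

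The second comparison, which the study was designed for, set Tom+ against Tom- cells of the same mouse. None of the 8 tested members passed the test. By limma's moderated test, blocked by mouse, 0 of the 8 and 0 of the 11339 genes (0%) had an adjusted p-value below 0.05, and the smallest adjusted p-value of all was 0.936. Before adjustment, p-values below 0.05 went to 0 members and to 530 genes in all (4.67%). The study reports genes that differed between these fractions by its own paired test, which was not repeated here. A count of 0 from limma on TPM with 2 pairs does not show that the fractions are alike. The log2 fold change of Trp53 in Tom+ cells was 0.14 (95% interval -0.43 to 0.71, SE 0.19, adjusted p = 0.948), from 0.20 in tumor #1 and 0.075 in tumor #2, where both values are close to 0 TPM. Wrap53 had a log2 fold change of 0.00093 (95% interval -0.70 to 0.71), which rests on tumor #1 since both libraries of tumor #2 are at 0. Mpdu1 had the largest change of the 8, at 0.40 (95% interval -0.20 to 0.99, SE 0.19, adjusted p = 0.936), and was higher in Tom+ cells of both tumors (0.19 and 0.61). Mdm4 was also higher in both (0.34 and 0.13), with a log2 fold change of 0.24 (95% interval -0.23 to 0.70, adjusted p = 0.936).

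Mdm2 was lower in Tom+ cells of tumor #1 and higher in those of tumor #2 (-0.090 and 0.028), with a log2 fold change of -0.031 (95% interval -0.53 to 0.46, adjusted p = 0.990) that turned to 0.0082 with trimmed-mean scaling. Cdkn2a also went in opposite directions, by 0.48 in tumor #1, from a level near 1 TPM, and -0.15 in tumor #2 (log2 fold change 0.17, 95% interval -0.62 to 0.95, adjusted p = 0.954). Kdm6b did so as well (0.44 and -0.12), with a log2 fold change of 0.16 (95% interval -0.66 to 0.98, adjusted p = 0.957). Fxr2 had a lower Tom+ value in each tumor (-0.017 and -0.32), with a log2 fold change of -0.17 (95% interval -0.65 to 0.31, adjusted p = 0.936). The median over the 8 members was 0.15, beside -0.033 over all genes tested. The intervals are wide, since 2 pairs leave 1 residual degree of freedom per gene.

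**Figure D4:**
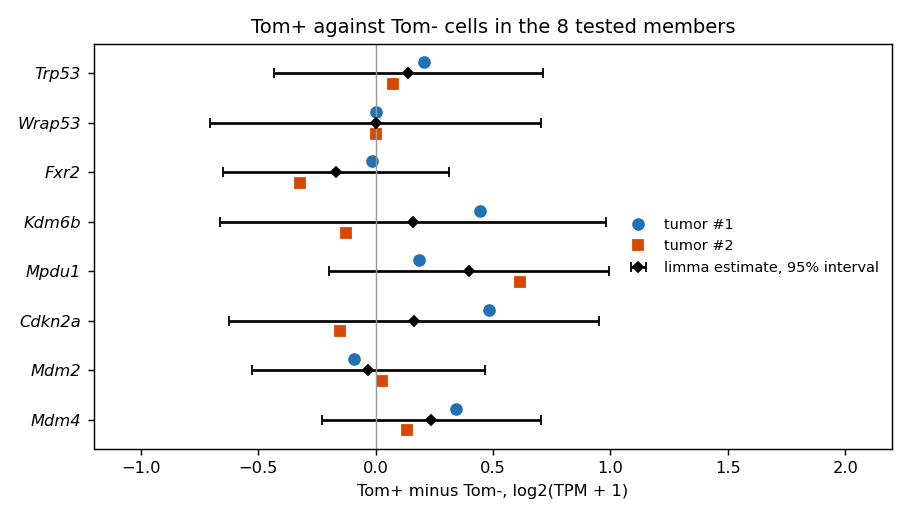
Tom+ minus Tom- difference in log2(TPM + 1) for the 8 tested members, with circles for tumor #1, squares for tumor #2 and diamonds for limma's estimate with its 95% interval. Every interval spans 0, and Cdkn2a, Kdm6b and Mdm2 lie on opposite sides of 0 in the 2 tumors.

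The rest of the pathway was described with lists written from general knowledge of it. Regulators of p53 and Cdkn2a, the D cyclins, their kinases and inhibitors, and Rb1 made up 7 lists of 60 genes, and 53 of these were tested. Between the tumors, 1 of the 53 (E2f1) was at least 2-fold lower and 8 were at least 2-fold higher in tumor #2 without overlap. These are 1.89% and 15.1%, beside 5.1% and 16.2% of all genes. The median difference of the 53 was 0.12 beside 0.20. By the ratio of mean TPM, the low genes Usp2 (0.465) and Ppp1r13l (0.445) were also more than 2-fold lower in tumor #2 without overlap. Between Tom+ and Tom- cells 0 of the 53 had an adjusted p-value below 0.05 from limma, and 2 had an unadjusted one (Atr and Ccnd3), a share no higher than the 4.67% of all genes tested.

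Among 9 ubiquitin ligases and deubiquitinases of p53, Trim24 was at 5.45 and 4.93 TPM (tumor #1) against 12.8 and 14.5 TPM (tumor #2). Rchy1, another ligase of p53, was at 15.4 and 15.9 against 37.4 and 37.3 TPM. In both genes the tumors were well apart. Usp7, the deubiquitinase of Mdm2 and p53, was at 187 and 155 TPM (tumor #1) against 208 and 159 TPM (tumor #2), with overlap, and in each tumor its Tom+ value was the lower (log2 fold change -0.33, adjusted p = 0.936). Usp2 was low, at 3.30 TPM or less, and had the largest Tom+ change of the list (0.50, adjusted p = 0.936). Of the 6 nucleolar and ribosomal proteins that bind Mdm2, none was at least 2-fold apart without overlap, beside 21.3% of all genes tested. Rpl5 came nearest to the limit, with a difference of 0.98. Rpl5 was higher in tumor #2 (139 and 161 TPM against 67.7 and 83.9 TPM), and Npm1, which holds ARF in the nucleolus, was lower (1607 and 1615 TPM against 2370 and 2507 TPM). Their Tom+ list was led by Rpl5 (log2 fold change 0.26, adjusted p = 0.936) and Rpl11 (-0.13, adjusted p = 0.939). Rpl11 went in opposite directions, by 0.033 in tumor #1 and -0.30 in tumor #2. Ribosomal protein genes have many pseudogene copies, and how the quantification divided reads among them is not known.

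Of the 9 kinases and phosphatases that act on p53, none was at least 2-fold apart without overlap, beside 21.3% of all genes tested. Nothing is read from a count over so few genes. Aurka came nearest to the limit, with a difference of -0.93. Aurka was lower in tumor #2 (10.8 and 11.3 TPM against 24.5 and 19.6 TPM), and Prkdc was higher (5.28 and 4.32 TPM against 2.63 and 2.99 TPM). Atr, a kinase of the replication stress response, was higher in Tom+ cells of both tumors, at 18.1 against 11.8 TPM and 22.8 against 13.0 TPM (log2 fold change 0.67, SE 0.17, unadjusted p = 0.0276 and adjusted p = 0.936 from limma). Dyrk2 had the next largest change (0.40, adjusted p = 0.936). The acetyltransferases Crebbp and Ep300 were both higher in tumor #2, Crebbp at 29.5 and 44.7 TPM against 11.7 and 15.2 TPM and Ep300 at 48.6 and 36.8 TPM against 19.5 and 18.0 TPM. Their Tom+ changes had opposite signs, 0.47 for Crebbp and -0.25 for Ep300, with an adjusted p-value of 0.936 for each.

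The p53 relatives Trp63 and Trp73 were at or near 0, with Trp63 listed at 0 in all 4 libraries and Trp73 at 0.0245 TPM or less. Among the p53 cofactors, Ppp1r13l, which encodes the inhibitor iASPP, was at 1.84 and 2.45 TPM (tumor #1) against 0.302 and 1.61 TPM (tumor #2), and Ppp1r13b was at 1.67 and 1.69 against 2.10 and 2.88 TPM. The largest Tom+ changes were 0.64 for Ppp1r13l (adjusted p = 0.936) and 0.31 for Trp53bp2 (adjusted p = 0.954). Trp53bp2 went in opposite directions, by -0.46 in tumor #1 and 1.09 in tumor #2.

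The 15 regulators of Cdkn2a had 11 tested members. Ets2, a factor that can activate the INK4a start, was at 0.933 and 0.913 TPM (tumor #1) against 6.87 and 19.0 TPM (tumor #2), and E2f1, which can activate the ARF start, was at 13.5 and 13.7 TPM (tumor #1) against 5.16 and 4.70 TPM (tumor #2). These 2 activators differed in opposite directions. Of the 11, 1 was at least 2-fold lower and 3 were at least 2-fold higher in tumor #2 without overlap. These are 9.09% and 27.3%, beside 5.1% and 16.2% of all genes. Ets2 had the largest Tom+ change of the list, by -0.015 in tumor #1 and 1.35 in tumor #2 (log2 fold change 0.67, adjusted p = 0.936), followed by Bmi1, the Polycomb repressor of the locus (0.39, adjusted p = 0.936). Another list held the D cyclins, their kinases and inhibitors, and Rb1. The cyclin gene Ccnd2 was at 0.249 and 0.134 TPM (tumor #1) against 17.7 and 7.43 TPM (tumor #2). Cdk4, the target of p16INK4a, was at 392 and 388 TPM (tumor #1) against 197 and 205 TPM (tumor #2), a difference of -0.95 that just missed the 2-fold limit. The Tom+ value of Ccnd2 was the lower in each tumor (log2 fold change -0.65, adjusted p = 0.936) and Ccnd3 higher in both (0.58, unadjusted p = 0.0248, adjusted p = 0.936).

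Of 34 target genes of p53, 27 were tested. Without overlap, 2 were at least 2-fold lower in tumor #2 (Gadd45a and Ephx1) and 5 were at least 2-fold higher. These are 7.41% and 18.5% of the 27, beside 5.1% and 16.2% of all genes. The median difference of the 27 was -0.062 beside 0.20 over all genes. By the ratio of mean TPM, the low genes Dcxr (0.304) and Tnfrsf10b (2.35) were also more than 2-fold apart without overlap. The largest differences were those of Ddit4, an inhibitor of mTORC1 (3.68 and 3.78 TPM in tumor #1, 43.0 and 33.1 TPM in tumor #2) and Trp53inp1 (14.5 and 12.7 TPM, 47.8 and 64.9 TPM), both higher in tumor #2. In Tom+ cells the largest changes were those of Xpc (log2 fold change -0.60) and Gadd45a (-0.58), with an adjusted p-value of 0.936 and 0.943. Xpc was lower in both tumors, while Gadd45a went in opposite directions, by 0.54 in tumor #1 and -1.70 in tumor #2. Cdkn1a, the best known target, stayed below the limit for testing, at 1.47 TPM or less.

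**Figure D5:**
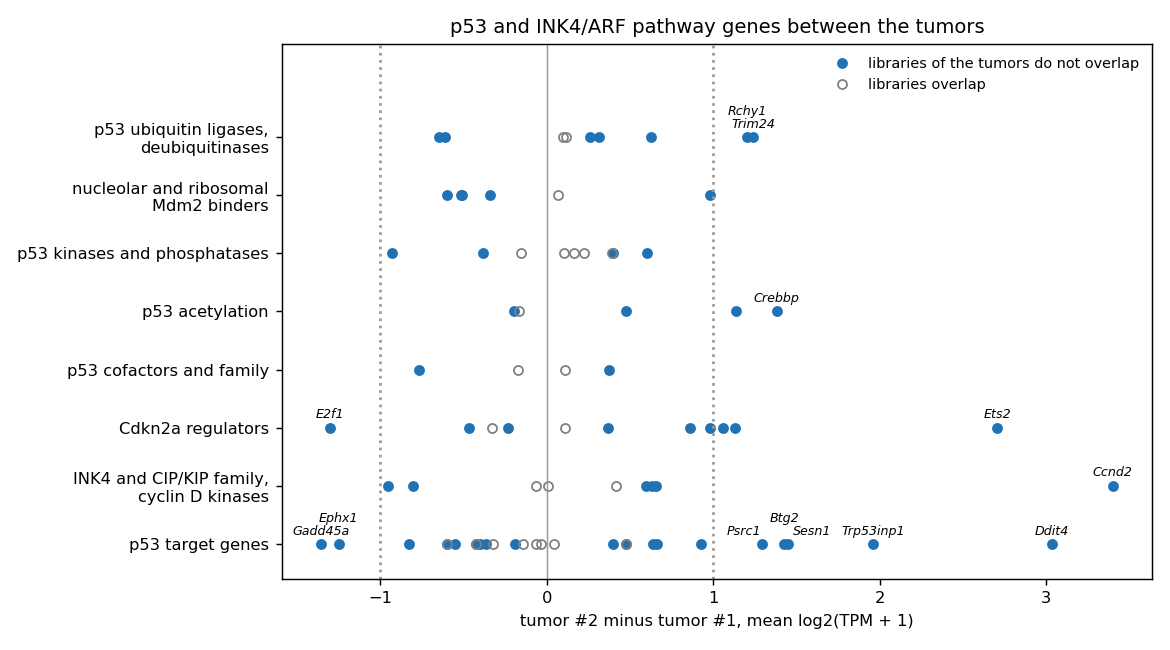
Difference between the tumors (tumor #2 minus tumor #1, mean log2(TPM + 1)) for each tested gene of 8 lists, with filled points where the libraries of the tumors do not overlap, open points where they do, and dotted lines at 2-fold. Most points lie inside the lines, with E2f1, Gadd45a and Ephx1 to the left and Ccnd2, Ddit4 and Ets2 farthest to the right.

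The genes whose pattern over the 4 libraries was most like that of Trp53, by the Euclidean distance of log2(TPM + 1), were Ly6k at 1.24 and Kbtbd12 at 2.66, followed by 3 pseudogenes at 2.70 to 3.05. Ly6k was at 54.9 and 48.0 TPM (tumor #1) against 0.218 and 0 TPM (tumor #2). It lies on chromosome 15 and Kbtbd12 on chromosome 6, so neither is near Trp53. Closest to Cdkn2a were Slc28a2 at 0.490, the pseudogene Gm7609 at 0.657, 3830406C13Rik at 0.740, Asns at 0.929 and Trim30a at 1.14. Slc28a2, a nucleoside transporter, was at 0.584 and 2.10 TPM (tumor #1) against 38.8 and 41.6 TPM (tumor #2), and none of the 5 is on chromosome 4. How many genes share such a pattern was not counted. With 4 libraries of 2 mice, likeness over 4 values is a description only.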

How the data were processed

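RNA was sequenced from 4 libraries, the B220+ IgM+ Tom- and Tom+ spleen cells of 2 mice with lymphoma. The authors deposited TPM per gene, estimated with Salmon 1.9 after base calling with CASAVA 1.8, as the submitters' processing notes name them, with GRCm38 as the genome. How transcripts were summed to genes is not given in the sources used here. TPM keeps no depth, so depth and counting error are unknown. Identifiers were matched to GENCODE M21 (34652 of 34866).

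The 11339 genes that reached 1 TPM in 2 or more libraries were tested on the log2(TPM + 1) scale, which understates changes of low genes, with limma 3.58.1 in R 4.3.3, the tumor as a block and Benjamini-Hochberg adjustment at 0.05. The 2 libraries of a number came from the same mouse, and their deviations were correlated across genes (r = 0.626, rho = 0.669, n = 11339 genes, which are not independent replicates). The authors' own count test was not repeated, as it needs counts. Immunoglobulin genes took 5.35 to 9.76%, mitochondrial genes 6.61 to 15.6% and pseudogenes 23.4 to 31.3% of TPM. The steps were run on simulated data with large planted changes and independent noise. That run does not show what smaller changes the test could find. The members and lists were chosen with earlier results of these data known. Text names all 10 members, the 2 genes of each list with the largest difference between tumors and in Tom+ cells, and the 5 nearest patterns. Chd3, Naa38, Eif4a1, Ephx1, Cdkn1a, Trp63, Trp73 and the 4 genes higher in tumor #2 near Trp53 were named after their values were seen. Alternatives were other pseudocounts, filters, scalings and variance models, the fit without the block, and each tumor or fraction alone. Sequences came from RefSeq on GRCm38.p6. Some items, among them 1 gene of the B cell list, are not reported here.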

Additional observations from a re-analysis of the deposited data

How the results depend on the processing

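Under all 10 alternatives to the limma fit, 0 genes and 0 members passed the adjusted p-value of 0.05 in the Tom+ comparison, and without the replicate block 0 genes passed and 140 had an unadjusted p-value below 0.05, against 530 with the pairing by mouse. The Mdm2 change of -0.031 turned to 0.0082 with trimmed-mean scaling and to 0.021 with immunoglobulin, mitochondrial and pseudogenes left out, and the cause was not tested. The count of members at least 2-fold apart between the tumors was 3, with 2 at a mean TPM of at least 5, where Wrap53 was not tested, 4 with immunoglobulin, mitochondrial and pseudogenes left out, and 3 under the others. The Trp53 difference ranged from -8.76 with a pseudocount of 0.1 to -6.33 in the Tom- libraries, that of Wrap53 from -6.03 to -2.89 and that of Cdkn2a from 4.16 to 5.39. Outside immunoglobulin genes Trp53 was the lowest in each of the 8 scalings, filters and pseudocounts compared. Trp53 was picked for its near absence from tumor #2, so nothing is read from that rank. With 1 tumor left out no residual degrees of freedom remain, so only values were computed, and counts of calls have none. Each tumor is 1 mouse, so what differs between the tumors cannot be told apart from what differs between the mice.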

Other observations

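Farther from Trp53 on the Fxr2 side, 4 genes in a row of the tested ones were at least 2-fold higher in tumor #2, with no overlap of the libraries. Zbtb4, a methyl-CpG binding repressor 174 kb away, was at 0.216 and 0.249 TPM (tumor #1) against 2.21 and 1.66 TPM (tumor #2). It passed the limit for testing through tumor #2 alone. Chrnb1, a subunit of the muscle acetylcholine receptor 192.2 kb away, was at 0.265 and 1.71 TPM (tumor #1) against 11.8 and 8.15 TPM (tumor #2). Fgf11 was at 0.525 and 1.16 TPM against 5.23 and 3.65 TPM, and Nlgn2, a neuroligin 231.2 kb away, at 1.78 and 3.84 TPM against 11.9 and 9.37 TPM. Polr2a, the next tested gene toward Trp53 and the largest subunit of RNA polymerase II, was at 39.8 and 42.1 TPM against 83.5 and 69.8 TPM. It was also higher without overlap, but below the 2-fold limit (difference 0.88). Among the genes tested, 16.2% were at least 2-fold higher in tumor #2, and these genes were picked after their values were seen.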
